A study of Mus musculus with 6 samples.

Results

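Mitochondrial ribosomal protein genes are the nuclear genes, named Mrpl for the large subunit and Mrps for the small subunit, that encode the protein part of the ribosome inside mitochondria. All symbols made of Mrpl or Mrps, a number and at most 1 further letter were taken, which gave 77 of the 23955 symbols in the deposited table, 48 Mrpl and 29 Mrps. The choice used names and no measured value. The mitochondrial ribosome translates the few messages of mitochondrial DNA, all of which encode core subunits of the respiratory chain and ATP synthase. Its RNAs are transcribed inside the organelle, while its proteins are made in the cytosol, imported and assembled there, so that the 2 genomes have to supply 1 particle. Haematopoietic stem cells (HSCs) are known for low reliance on respiration while quiescent, and mitochondrial activity is known to be needed when they divide and differentiate.

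The series measured RNA in HSCs of obese and lean C57BL/6 mice aged 4 months, with the question of which genes change with obesity. The db/db mice carry the mutant leptin receptor gene and are obese, and the WT mice were their littermates. From c-Kit-enriched marrow, 20000 CD150+ CD48- cells per library were sorted among the LSK cells, which are Sca-1+ and c-Kit+ and lack lineage markers. There were 3 independent experiments, each with 1 db/db and 1 WT library, so that n = 3 in each group. No other agent or allele is named for either group. The mutation is carried in the whole animal, so the HSCs and their surroundings both have it. How many mice went into a library is not settled by the labels, and the p-values below measure the spread between these libraries.

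Values are in TPM, a transcript abundance scaled to the same total in each library and divided by transcript length. Levels of different genes can thus be set side by side, although bias from amplification of the libraries was not examined. Sequencing depth cannot be read from TPM and is unknown. The 10 HSC markers examined, such as Hlf, Mecom and Procr, were above 0 in all 6 libraries and summed to between 1977 and 2312 TPM in db/db libraries and between 1381 and 2401 TPM in WT libraries. Genes listed as markers of other cell types were also examined. Whether their RNA came from the HSCs or from other cells was not tested. The 14 granulocyte and monocyte genes summed to 4209, 2365 and 1671 TPM in db/db replicates 1 to 3, against 4814, 561.4 and 480.1 TPM in WT replicates 1 to 3. None of the 14 was at 0 in a db/db library, against 0, 1 and 3 of them in WT replicates 1 to 3. Of the 14, 9 were higher at an unadjusted p under 0.05 in limma (64.3%, against 4.1% of all genes averaging at least 1 TPM). There were 0 lower (against 1.25%) and 0 passing after Benjamini-Hochberg adjustment. The 8 erythroid genes summed to between 320.8 and 1406 TPM in db/db libraries and between 95.79 and 203.9 TPM in WT libraries. One gene, averaging 390.1 TPM over all libraries, weighs heavily on these sums. Of the 7 erythroid genes averaging at least 1 TPM, 5 had a log2 fold change above 0 and 2 below. Among the 7, 1 was higher at an adjusted p of 0.000688 in limma with Benjamini-Hochberg adjustment, against 4 of 11931 genes in all (0.0335%). Erythroid genes at 0 numbered 2, 1 and 1 in db/db replicates 1 to 3, against 1, 0 and 0 in WT replicates 1 to 3. The 6 megakaryocyte genes, Vwf and Itga2b among them, summed to between 487.3 and 779.6 TPM in db/db libraries and between 398.2 and 661 TPM in WT libraries. The 4 genes listed for progenitors outside the gate, Cd48, Flt3, Cd34 and Cd53, summed to between 229.4 and 366.9 TPM in db/db libraries and between 187.9 and 216.8 TPM in WT libraries. All 4 differed from WT by more than the median of all genes in each experiment, on the higher side, against 14.1% of all genes. The 8 lymphoid genes summed to at most 2.33 TPM in any library.

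The promoters of the 2 genes per subunit with the smallest unadjusted p are shown first, because they carry the differences that come closest to a call and because promoters of genes for mitochondrial proteins are known to hold sites for a few shared factors. Sequences are from RefSeq on GRCm38.p6, a later build than the mm9 used for the deposited values. Each runs 5′ to 3′ on the strand of the gene, from 250 bases before the annotated start to 50 bases after it, so the last 50 bases lie in the transcript. Capitals mark matches on either strand to GCGCATGC (the NRF1 motif), CCGGAAG (the ETS motif, bound by GABPA), AAGATGGCG (the YY1 motif) or GGGCGG (the SP1 motif). Mrps26 lies at chr2:130563507-130563806 on the plus strand, Mrps16 at chr14:20393441-20393740 on the minus strand, Mrpl27 at chr11:94653541-94653840 on the plus strand and Mrpl46 at chr7:78783040-78783339 on the minus strand.
Mrps26: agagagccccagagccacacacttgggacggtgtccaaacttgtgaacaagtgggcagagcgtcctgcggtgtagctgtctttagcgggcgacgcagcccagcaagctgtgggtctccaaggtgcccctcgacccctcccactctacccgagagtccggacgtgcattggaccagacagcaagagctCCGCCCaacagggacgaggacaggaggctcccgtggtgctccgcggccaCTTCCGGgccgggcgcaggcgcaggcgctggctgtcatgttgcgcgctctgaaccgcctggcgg
Mrps16: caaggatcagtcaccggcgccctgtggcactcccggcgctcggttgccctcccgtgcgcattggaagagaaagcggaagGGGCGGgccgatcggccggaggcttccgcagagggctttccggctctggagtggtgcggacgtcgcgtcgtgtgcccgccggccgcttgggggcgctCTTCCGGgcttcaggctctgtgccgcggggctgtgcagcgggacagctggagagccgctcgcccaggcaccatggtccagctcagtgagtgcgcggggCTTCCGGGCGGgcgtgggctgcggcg
Mrpl27: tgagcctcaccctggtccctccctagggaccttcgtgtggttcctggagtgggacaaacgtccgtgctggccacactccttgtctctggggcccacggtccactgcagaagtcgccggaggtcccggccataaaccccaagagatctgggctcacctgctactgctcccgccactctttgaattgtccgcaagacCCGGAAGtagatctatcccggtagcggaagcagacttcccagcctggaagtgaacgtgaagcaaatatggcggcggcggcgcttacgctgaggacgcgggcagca
Mrpl46: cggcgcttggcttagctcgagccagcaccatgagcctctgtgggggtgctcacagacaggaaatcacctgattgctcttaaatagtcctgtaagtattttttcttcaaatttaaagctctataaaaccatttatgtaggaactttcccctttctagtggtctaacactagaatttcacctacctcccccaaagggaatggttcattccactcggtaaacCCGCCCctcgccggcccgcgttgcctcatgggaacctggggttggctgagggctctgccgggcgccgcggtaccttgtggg
The Mrps26 window holds 1 SP1 match and 1 ETS match, the ETS match closest to the start. In the Mrps16 window an ETS and an SP1 match overlap just after the start, and 1 of each lies upstream; another annotated start of Mrps16 is not shown. The Mrpl27 window holds 1 ETS match, and the Mrpl46 window holds 1 SP1 match.

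RefSeq gave 74 promoters for 68 of the 77 genes, and windows of the same length could be compared for 11417 promoters of tested genes and 32851 promoters in all. The ETS motif was in 25 windows (33.8%), against 18% of the promoters of tested genes and 8.86% of all promoters. The NRF1 motif was in 8 windows (10.8%), against 5.33% and 2.71%. The YY1 motif was also in 8 windows (10.8%), against 3.1% and 1.4%. The SP1 motif was in 39 windows (52.7%), below the 62.6% of tested genes and above the 35.7% of all promoters. These are counts of letters, and neither binding nor use of the motifs was measured.

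All 77 genes were expressed. Each was above 0 TPM in all 6 libraries and passed the filter for testing, a mean of at least 1 TPM, as did 11931 symbols in all. The median of their mean levels was 42.8 TPM, against 15.8 TPM for all tested genes, with 74 of the 77 at 10 TPM or more and 11 at 100 TPM or more. The range ran from 8.93 TPM for Mrpl38 to 355.6 TPM for Mrpl52, and the 10 highest genes together held 42.8% of the summed level. The Mrpl genes held 68.5% of that sum and the Mrps genes 31.5%. Symbols follow the historical names, under which Mrps30 and Mrps18a count with the small subunit although their proteins are known to sit in the large one, and Mrps36, known as a part of the 2-oxoglutarate dehydrogenase complex, counts as ribosomal.

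**Figure D1:**
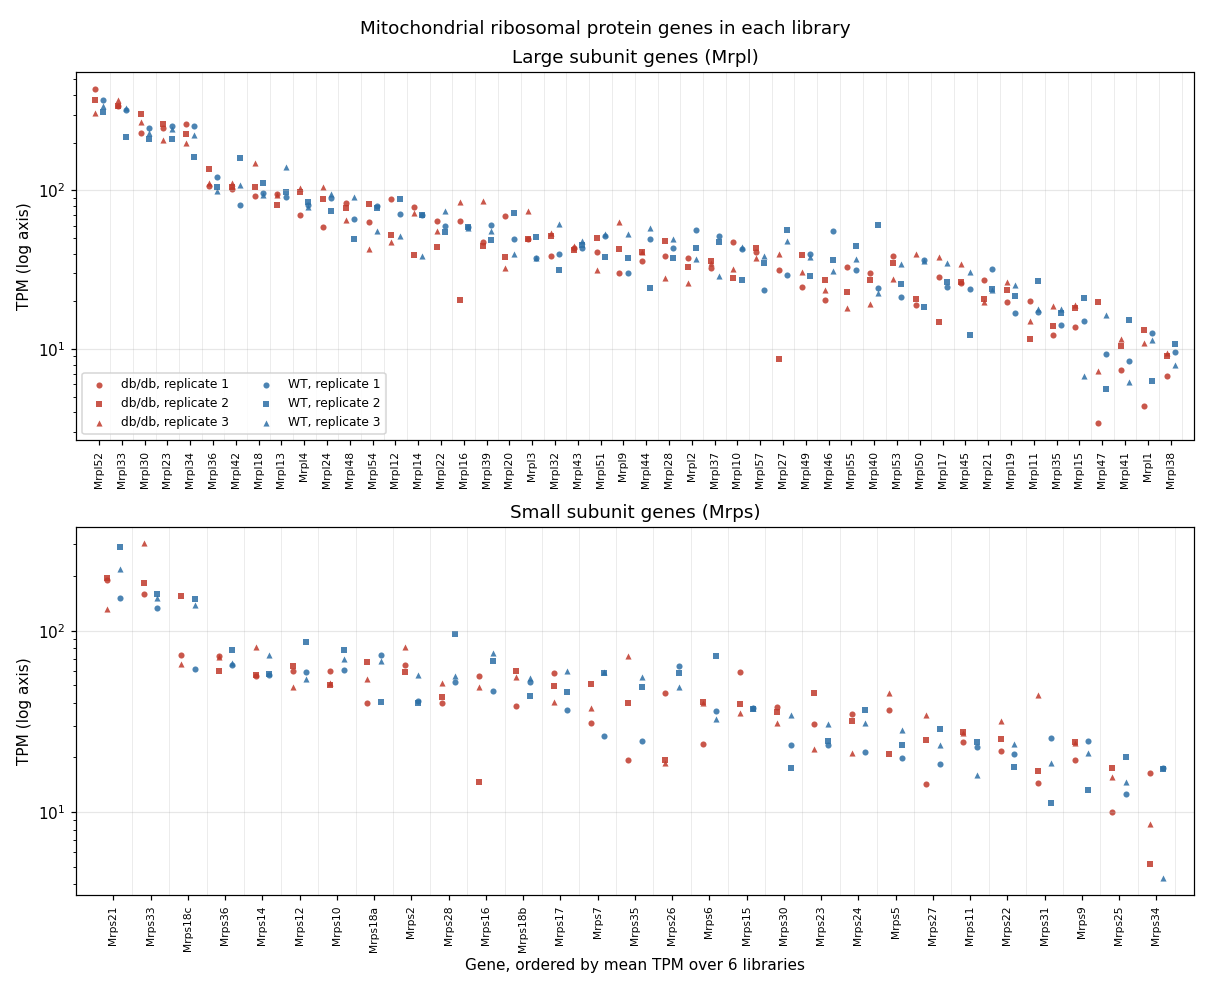
Level of each of the 77 genes in each library, in TPM on a log axis, with Mrpl genes in the upper panel and Mrps genes in the lower one, ordered by mean over the 6 libraries. Red symbols are db/db libraries and blue symbols are WT libraries, and circle, square and triangle are replicates 1, 2 and 3. For most genes the red and blue symbols overlap, and Mrpl52 and Mrps21 are the highest of their panels.

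In the large subunit the highest level was that of Mrpl52, a protein with no bacterial counterpart. It had 437.15, 368.55 and 305.72 TPM in db/db libraries and 369.39, 313.14 and 339.41 TPM in WT libraries. The groups overlapped, with the highest and the lowest value both in db/db. Mrpl33, a small protein that also exists in bacteria, had 341.22, 338.52 and 369.36 TPM in db/db libraries and 320.0, 217.52 and 329.83 TPM in WT libraries. All db/db values lay above all WT values, the gap to the highest WT value being small and WT replicate 2 standing apart at the low end. Its log2 fold change was 0.30 (95% interval -0.20 to 0.79), and 0.10 without WT replicate 2.

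Mrpl30 averaged 268 ± 36.1 TPM in db/db libraries and 228 ± 19.2 TPM in WT libraries (SD, n = 3 each). Mrpl23, which in bacteria and mitochondria lines the exit of the peptide tunnel, averaged 238 ± 28.3 TPM in db/db libraries and 237 ± 23.9 TPM in WT libraries. Both genes overlapped between groups.

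In the small subunit Mrps21 was highest, with 191.29, 195.54 and 132.22 TPM in db/db libraries and 152.09, 290.04 and 217.9 TPM in WT libraries. The groups overlapped, and WT replicate 2 was the highest. Mrps33, found in mitochondria but not in bacteria, had 159.23, 183.53 and 303.23 TPM in db/db libraries and 133.51, 160.05 and 152.5 TPM in WT libraries. All db/db values were above WT values except db/db replicate 1, which lay just under WT replicate 2. It did not pass, at a log2 fold change of 0.48 (SE 0.27) and an adjusted p of 0.919 in limma with Benjamini-Hochberg adjustment, and it was positive in all 3 experiments. Relative to the median of all genes, its differences in experiments 1 to 3 were 0.25, -0.25 and 0.89. Mrps36 had 72.46, 60.25 and 71.38 TPM in db/db libraries and 65.04, 77.83 and 66.7 TPM in WT libraries, with overlap.

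Mammals carry 3 genes related to bacterial S18, and their levels are set side by side here. Mrps18b has a near-identical copy, Gm13552, so reads shared with it may affect its level. Mrps18c, the highest, had 73.8, 155.94 and 65.67 TPM in db/db libraries and 61.77, 150.35 and 138.62 TPM in WT libraries. Both experiment 2 libraries were high, and the groups overlapped widely. Mrps18a averaged 53.9 ± 13.5 TPM in db/db libraries and 60.8 ± 17.8 TPM in WT libraries (SD, n = 3 each), and Mrps18b 51.4 ± 11.5 TPM in db/db libraries and 50.1 ± 5.64 TPM in WT libraries. None of the 3 passed, with log2 fold changes of -0.25, -0.16 and 0.02 for Mrps18c, Mrps18a and Mrps18b and adjusted p-values of 0.929, 0.95 and 0.996 in limma with Benjamini-Hochberg adjustment.

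High levels went with short coding sequences. The coding length of the 77 genes had a median of 576 bases (195 to 1326), against 1362 bases for the 10904 tested genes with a length. The 10 most abundant genes had a median of 340.5 bases and none was longer than 540. Across the 77 genes, Spearman's rho between length and mean level was -0.464, and across tested genes it was -0.261. Both are descriptions across genes from the same libraries, and TPM already divides by an effective length. The lowest genes included Mrpl38, Mrpl1, Mrpl41 and Mrpl47.

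Taken as a sum, the genes kept an even share of the RNA. They summed to 4815.4, 4858.5 and 4979.9 TPM in db/db libraries and to 4720.5, 4884.1 and 5021.4 TPM in WT libraries. The db/db values lay inside the WT range, and the means of 4885 ± 85.3 TPM in db/db libraries and 4875 ± 151 TPM in WT libraries differed by less than the spread (SD, n = 3 each). This was 0.482 to 0.498% of all TPM in db/db libraries and 0.472 to 0.502% in WT libraries. The median level of these genes was 38.65 to 40.62 TPM in db/db libraries and 42.44 to 48.2 TPM in WT libraries, without overlap. Mrpl medians were 39.83 to 40.13 TPM in db/db libraries and 44.85 to 46.41 TPM in WT libraries, also without overlap. Mrps medians overlapped, at 38.4 to 44.11 TPM in db/db libraries and 36.66 to 54.11 TPM in WT libraries. The difference in medians was not tested. In bulk samples such as these, fewer cells of a type and less RNA per cell cannot be told apart.

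The sum is led by the abundant Mrpl genes. Those summed to between 3333.9 and 3403.6 TPM in db/db libraries and between 3138.1 and 3410.8 TPM in WT libraries. The Mrps genes varied more, between 1411.8 and 1595.7 TPM in db/db libraries and between 1309.7 and 1746.0 TPM in WT libraries. The ratio of small- to large-subunit sums was 0.415, 0.457 and 0.471 in db/db libraries and 0.384, 0.556 and 0.478 in WT libraries, so both extremes were WT libraries.

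The 76 cytosolic ribosomal protein genes behaved less evenly in the same libraries. They took 29.9, 22.5 and 21.8% of TPM in db/db libraries and 28.9, 32.7 and 25.1% in WT libraries. The lowest was db/db replicate 3, and the highest WT replicate 2. The 76 nuclear genes of the respiratory chain took 2.25, 2.09 and 2.06% in db/db libraries and 2.24, 2.47 and 2.19% in WT libraries. Here too WT replicate 2 was highest.

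**Figure D2:**
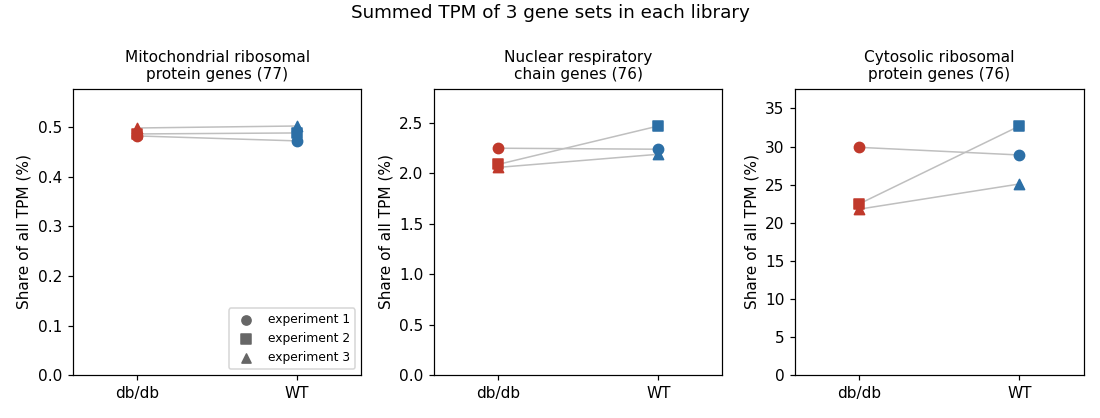
Share of all TPM, in percent from 0, taken by the mitochondrial ribosomal protein genes, the nuclear respiratory chain genes and the cytosolic ribosomal protein genes in db/db (red, left) and WT (blue, right) libraries, with lines joining libraries of the same experiment. The first share stays between 0.472 and 0.502%, while the cytosolic share ranges from 21.8 to 32.7%.

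The comparison of db/db with WT used limma on log2(TPM + 1), with 0.05 as the threshold for the adjusted p. None of the 77 genes passed, higher or lower, against 4 of 11931 tested genes (0.0335%), all higher. The fit with the experiment as a block also called 0 of the 77, against 0.0503% of all tested genes. At an unadjusted p under 0.05, 3 of the 77 (3.9%) were lower, against 1.25% of all tested genes, and 0 were higher, against 4.1%. With the block, 1 was higher at that p, against 5.41% of all tested genes, and 3 were lower, against 1.62%. The 3 were not all the same genes, as Mrps16 took the place of Mrpl27. The smallest adjusted p of the 77 was 0.588. The unadjusted 95% intervals were wide, with a median half-width of 0.69 on the log2 scale (0.479 to 1.09), and the adjusted threshold is stricter than these intervals. The absolute log2 fold change exceeded 1 in 1 gene.

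**Figure D3:**
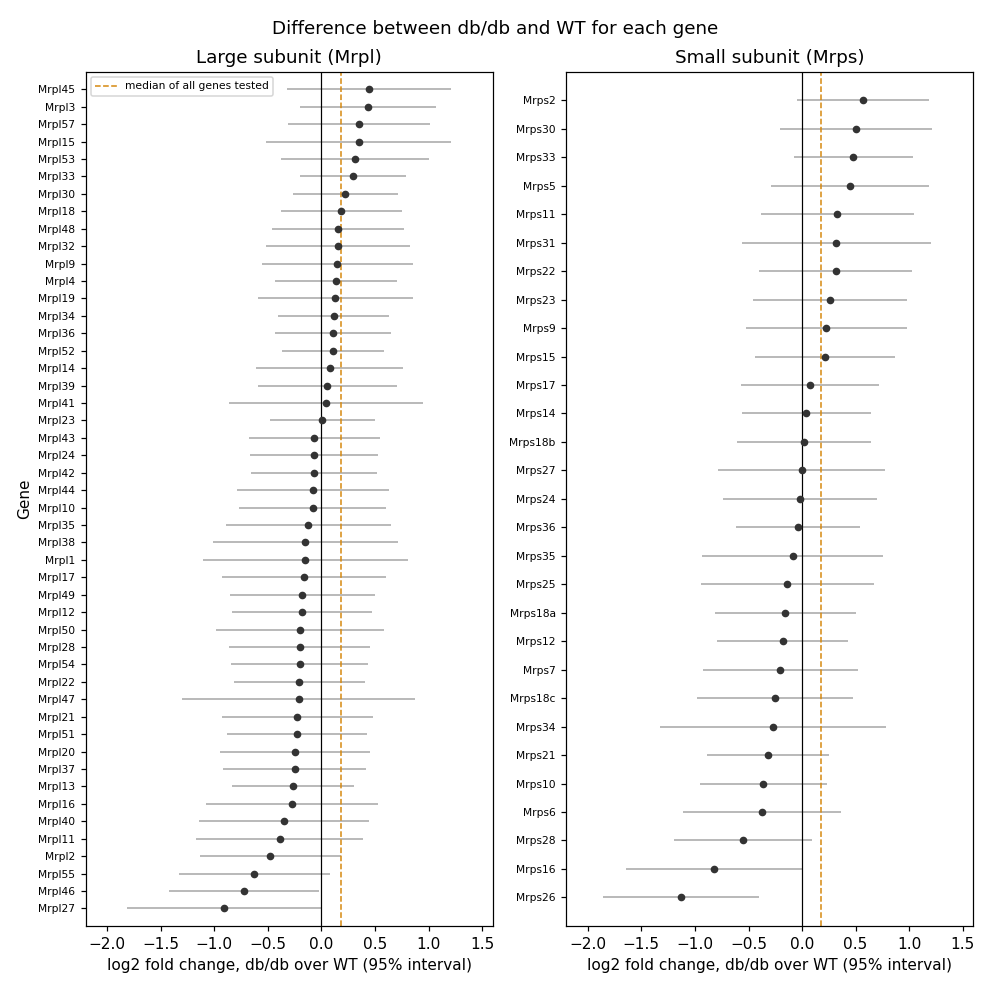
Log2 fold change of db/db over WT with its 95% interval from limma for each Mrpl gene (left) and Mrps gene (right), sorted by value, with a solid line at 0 and a dashed line at the median of all genes tested, 0.18. The intervals of Mrpl46, Mrpl27 and Mrps26 lie below 0, that of Mrpl27 only just, and no interval lies above 0.

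The gene with the largest difference was Mrps26, a small-subunit protein found in mitochondria but not in bacteria. It had 45.11, 19.27 and 18.7 TPM in db/db libraries and 64.05, 58.75 and 48.86 TPM in WT libraries. Every db/db library lay below every WT library, and db/db replicate 1 was the closest to WT. The log2 fold change was -1.13 (SE 0.35, 95% interval -1.86 to -0.40), negative in 3 of 3 experiments at -0.50, -1.56 and -1.34, with an adjusted p of 0.588 in limma with Benjamini-Hochberg adjustment. A near-identical copy, Gm9063, and an overlapping gene on the opposite strand, 4930473A02Rik, make its value uncertain, since the sources used here do not say how reads were divided or whether strand was used.

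Mrpl46, a large-subunit protein of the central protuberance with no bacterial counterpart, had 20.48, 27.43 and 23.62 TPM in db/db libraries and 55.36, 36.55 and 30.98 TPM in WT libraries. The groups did not overlap, and WT replicate 1 stood well above the others. The log2 fold change was -0.72 (SE 0.34, 95% interval -1.42 to -0.03), negative in 3 of 3 experiments, with an adjusted p of 0.919 in limma with Benjamini-Hochberg adjustment. Mrpl46 overlaps its opposite-strand neighbour Mrps11, which had 24.2, 27.55 and 27.4 TPM in db/db libraries and 22.95, 24.36 and 15.98 TPM in WT libraries. Without strand in the counting, reads of the overlap cannot be told apart.

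Mrpl27, whose bacterial counterpart reaches towards the catalytic centre of the ribosome, had 31.59, 8.67 and 39.76 TPM in db/db libraries and 29.24, 56.27 and 48.09 TPM in WT libraries. The groups overlapped, and db/db replicate 2 alone was far below the rest. Its log2 fold change was -0.91 (SE 0.44, 95% interval -1.81 to -0.00) and was -0.27 without db/db replicate 2. It was negative in 2 of 3 experiments, with an adjusted p of 0.919 in limma with Benjamini-Hochberg adjustment. Mrps16, a small-subunit protein shared with bacteria, had 56.61, 14.72 and 48.74 TPM in db/db libraries and 46.52, 67.67 and 75.15 TPM in WT libraries. Again db/db replicate 2 was by far the lowest and the groups overlapped. The log2 fold change of -0.82 (SE 0.40) gave an unadjusted p of 0.0508 in limma, just outside the 3 counted above without the block. With the block, the unadjusted p in limma was 0.0457 for Mrps16 and 0.0529 for Mrpl27.

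Mrps2, shared with bacteria, was the gene with the largest positive difference. It had 65.07, 59.25 and 81.62 TPM in db/db libraries and 41.0, 39.93 and 57.16 TPM in WT libraries. Every db/db library lay above every WT library, though db/db replicate 2 only just exceeded WT replicate 3. The log2 fold change was 0.57 (SE 0.30, 95% interval -0.04 to 1.19) and close to that in each experiment, at 0.65, 0.56 and 0.51, with an adjusted p of 0.919 in limma with Benjamini-Hochberg adjustment. Less the median of all genes, the 3 differences were less alike, at 0.65, 0.11 and 0.41. With median-of-ratios scaling of the libraries the log2 fold change was 0.38, and with the experiment as a block the adjusted p was 0.674 in limma.

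The groups did not overlap in 6 of the 77 genes. In db/db, Mrpl33 and Mrps2 lay above WT (2.6% of the 77), against 7.85% of all tested genes. Mrpl46, Mrps10, Mrps26 and Mrps28 lay below (5.19%), against 2.32%. Mrps28, the mitochondrial relative of bacterial S1, had 40.1, 42.94 and 51.16 TPM in db/db libraries and 51.96, 96.03 and 56.62 TPM in WT libraries. WT replicate 2 was far above the others, and the log2 fold change of -0.55 became -0.28 without it. Mrps10 had 60.34, 50 and 51.18 TPM in db/db libraries and 60.49, 78.65 and 69.82 TPM in WT libraries, with db/db replicate 1 all but level with WT replicate 1.

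Further genes held the same side of the all-gene median in every experiment without passing. Mrpl45, known to tie the ribosome to the inner membrane, had 26.17, 26.65 and 34.23 TPM in db/db libraries and 23.88, 12.29 and 30.81 TPM in WT libraries. WT replicate 2 was the lowest, the groups overlapped, and the log2 fold change of 0.44 became 0.083 without that library and 0.71 without WT replicate 3. Mrpl2, a protein near the catalytic centre, had 37.32, 32.99 and 26.21 TPM in db/db libraries and 55.9, 43.41 and 36.83 TPM in WT libraries. Within each experiment db/db was below WT by a like amount, at -0.57, -0.39 and -0.48 on the log2 scale, although the groups overlapped. With the median of all genes subtracted, these differences were -0.57, -0.83 and -0.57.

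Mrpl21 was lower in db/db in each experiment by small amounts, at -0.22, -0.20 and -0.25 on the log2 scale. With the median of all genes subtracted, these differences were -0.22, -0.65 and -0.34. The Mrpl21 log2 fold change of -0.22 became -0.36 without db/db replicate 1, -0.14 without db/db replicate 3 and -0.087 without WT replicate 1. Mrpl51 had 41.03, 50.46 and 31.32 TPM in db/db libraries and 51.68, 38.26 and 53.41 TPM in WT libraries. The groups overlapped, and in experiment 2 db/db was the higher, by 0.39 on the log2 scale, which is less than the median of all genes there. The log2 fold change of -0.23 ran from -0.39 without db/db replicate 2 to -0.054 without db/db replicate 3, and was -0.38 without WT replicate 2 and -0.14 without WT replicate 3. Mrps22, a small-subunit protein without bacterial counterpart, had 21.63, 25.22 and 31.8 TPM in db/db libraries and 20.83, 17.63 and 23.85 TPM in WT libraries, with overlap. Its log2 fold change of 0.32 became 0.17 without db/db replicate 3 and 0.21 without WT replicate 2. Mrps25 was nearest to no difference among these, at -0.14, and changed sign without db/db replicate 1 (0.086) or without WT replicate 2 (0.041). The adjusted p-values of these 6 genes lay between 0.919 and 0.967 in limma with Benjamini-Hochberg adjustment.

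Relative to other genes, more of the set lay lower in db/db than higher; this is a description, with no test. The median log2 fold change of all tested genes was 0.18, that of the 77 genes was -0.07, and the difference between the 2 medians was -0.25. Of the 77, 44 (57.1%) were below 0, against 31.9% of tested genes, and 59 (76.6%) were below the median of all tested genes, against 50% by construction. With median-of-ratios scaling, which moves the all-gene median to 0.00, 60 of the 77 were below 0 and the relative median was -0.27. The Mrpl genes had a relative median of -0.26 and the Mrps genes of -0.20.

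The shift relative to all genes was largest in experiment 2. Less the median of all tested genes, the median difference of the 77 genes was 0.00 in experiment 1, -0.49 in experiment 2 and -0.18 in experiment 3. Before that subtraction the median of the 77 genes was 0.00, -0.04 and -0.08 in experiments 1 to 3. The median of all tested genes was 0.00, 0.45 and 0.09. In experiment 2 the median of all genes thus lay further from 0 than that of the 77 genes. In experiment 1, 38 of the 77 (49.4%) lay below the median of all genes, against 49.5% of tested genes. In experiment 2, 61 (79.2%) did, against 50%, and in experiment 3, 46 (59.7%) did, against 50%. Only 14 of the 77 (18.2%) lay below in all 3 experiments, against 14% of tested genes, and 4 (5.19%) lay above in all 3, against 14.1%. Without WT replicate 2 the relative median was -0.095, and 51 of the 77 lay below the median of all genes.

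Large differences in single experiments followed the same order. In experiment 2, 17 of the 77 (22.1%) lay more than 1 on the log2 scale below the median of all genes, against 11.1% of tested genes, and 1 (1.3%) lay as far above, against 7.33%. In experiment 1, 3 (3.9%) lay below, against 7.22%, and 0 above, against 7.12%. In experiment 3, 4 (5.19%) lay below, against 5.92%, and 2 (2.6%) above, against 5.72%. Mrps26 was among those below in experiments 2 and 3.

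**Figure D4:**
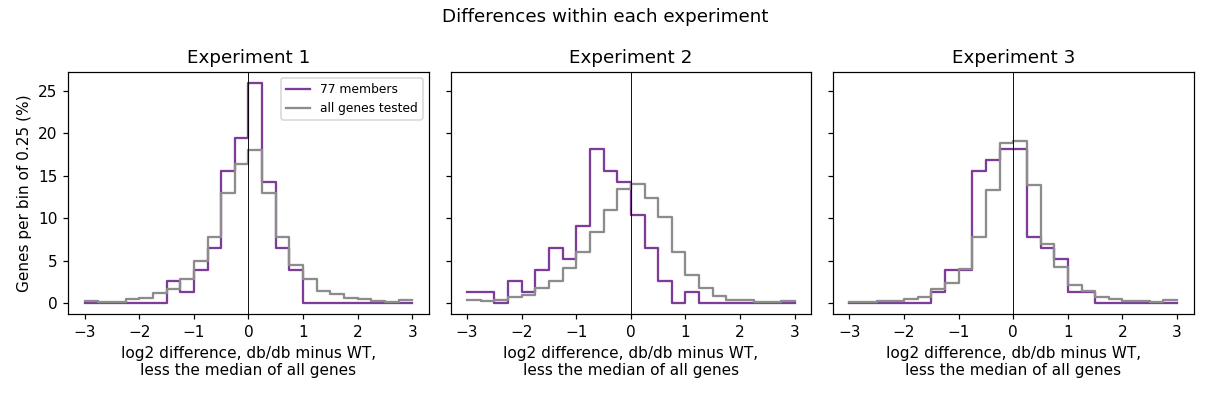
Differences of db/db minus WT on the log2 scale, less the median of all genes, within each experiment, as the percentage of genes per bin of 0.25, for the 77 genes (purple) and all tested genes (grey), with values beyond 3 placed in the end bins. The purple line is centred near 0 in experiment 1 and lies left of the grey line in experiment 2, where the median is -0.49.

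Other measures of the same libraries are set beside this shift. The libraries' deviations of the 77 genes from all genes, on the log2 scale, were 0.09, -0.10 and -0.22 in db/db libraries and 0.10, 0.27 and -0.09 in WT libraries. Median-of-ratios size factors were 0.9035, 1.118 and 1.213 in db/db libraries and 0.9025, 0.8049 and 1.123 in WT libraries. WT replicate 2 had the lowest factor and the highest deviation. Both measures use the typical level of all genes in a library. They are therefore partly tied by construction, and their opposite order is not independent evidence. Rn45s, the symbol of the ribosomal RNA precursor, held 8.51, 8.04 and 6.34% of TPM in db/db libraries and 10.4, 10.4 and 6.46% in WT libraries. The granulocyte and monocyte genes given above summed to 2365 TPM in db/db replicate 2 and 561.4 TPM in WT replicate 2. Less the median of all tested genes, the median difference of these genes was -0.043, 2.433 and 2.225 in experiments 1 to 3. Spearman's rho between coding length and log2 fold change was 0.14 across tested genes and 0.147 across the 77 genes. The median coding length was 576 bases for the 77 genes and 1362 bases for tested genes. The part of these measures in the result was not tested.

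How far the 77 genes moved together across libraries depended on the scaling. The median Pearson correlation between pairs of the 77 genes over the 6 libraries was 0.00907 on log2(TPM + 1), with an interquartile range of -0.359 to 0.368. It was 0.608 for the cytosolic ribosomal protein genes and 0.202 for all tested genes. After median-of-ratios scaling the medians were 0.231 for the 77 genes, 0.9 for the cytosolic genes and -0.00046 for all tested genes. The 77 genes thus lay below all tested genes on unscaled values and above them after scaling, and below the cytosolic genes on both. These are descriptions from the same 6 libraries, which share their scaling, genotype groups and experiments.

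Single genes were nonetheless fairly steady. The median within-group SD on the log2 scale was 0.343 for the 77 genes, against 0.459 for all tested genes, 0.283 for the respiratory chain genes and 0.267 for the cytosolic ribosomal protein genes. These sets were not matched for level. Their median levels were 42.8, 15.8, 189.8 and 2961 TPM in that order, so the SD fell as the level rose. Across the 77 genes, the ratio of highest to lowest library had a median of 1.95. The order of levels was much alike in both groups, with a Spearman's rho of 0.928 between db/db and WT means across the 77 genes.

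Mrpl43 was the steadiest, with 43.55, 42.11 and 44.73 TPM in db/db libraries and 43.4, 45.02 and 48.2 TPM in WT libraries. All 6 libraries lay within a ratio of 1.14, and the groups overlapped. Mrpl43 shares sequence with the opposite-strand gene Peo1 (now Twnk), which had 4.99, 19.43 and 30.55 TPM in db/db libraries and 11.84, 8.0 and 16.77 TPM in WT libraries, so the division of reads between them makes the steady value uncertain. Mrpl47 varied most, with 3.41, 19.95 and 7.3 TPM in db/db libraries and 9.37, 5.62 and 16.37 TPM in WT libraries, a within-group SD of 0.939 on the log2 scale. The highest and the lowest library were both db/db. Mrps34, which is known to be needed for a stable small subunit, had 16.49, 5.14 and 8.59 TPM in db/db libraries and 17.54, 17.34 and 4.31 TPM in WT libraries. The lowest values were those of db/db replicate 2 and WT replicate 3, and the groups overlapped.

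Genes that the symbol rule leaves out or that act with the mitochondrial ribosome passed in no list. Among 7 further genes, Dap3, a GTP-binding protein of the small subunit, had 13.92, 18.52 and 16.01 TPM in db/db libraries and 17.15, 12.11 and 15.13 TPM in WT libraries, with overlap. Aurkaip1, also of the small subunit, had 80.61, 126.34 and 124.61 TPM in db/db libraries and 69.95, 99.03 and 87.94 TPM in WT libraries, higher within each experiment but with overlap. Relative to the median of all genes, the Aurkaip1 difference in experiment 2 was -0.10. Ict1, a release factor built into the large subunit, had 37.01, 26.15 and 55.6 TPM in db/db libraries and 61.67, 39.48 and 31.77 TPM in WT libraries. The log2 fold changes of Ptcd3, Chchd1, Gadd45gip1 and Oxa1l, the last an insertase that receives the new proteins, were 0.19, -0.14, -0.33 and 0.08. The relative median of the 7 was -0.10.

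The lists of translation factors (15 genes) and of assembly factors (25 genes) had relative medians of -0.13 and -0.10. Slirp and Lrpprc, which form a complex that stabilises mitochondrial messages, had log2 fold changes of -0.41 and -0.43, both with an adjusted p of 0.92 in limma with Benjamini-Hochberg adjustment. Nsun4, an rRNA methyltransferase, had 2.65, 7.87 and 7.09 TPM in db/db libraries and 12.1, 10.03 and 9.83 TPM in WT libraries, all db/db values being below all WT values. Mettl15, another rRNA methyltransferase, had 2.74, 18.05 and 9.29 TPM in db/db libraries and 1.03, 3.11 and 8.43 TPM in WT libraries, with overlap. Neither passed, each with an adjusted p of 0.919 in limma with Benjamini-Hochberg adjustment. Malsu1 had the highest mean of the assembly list and a log2 fold change of -0.06.

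Among 19 mitochondrial tRNA synthetase genes the relative median was 0.03, and limma gave an unadjusted p under 0.05 for 2 that were higher (10.5%, against 4.1% of all tested genes) and 1 that was lower (5.26%, against 1.25%). Yars2, the enzyme for tyrosine, had 16.41, 18.94 and 18.16 TPM in db/db libraries and 5.78, 17.12 and 6.84 TPM in WT libraries, with overlap. Lars2, the lower one, had 9931.0, 7540.14 and 8025.23 TPM in db/db libraries and 12211.0, 19282.9 and 7772.0 TPM in WT libraries. Its groups overlapped, WT replicate 2 stood far above the rest, and the difference in experiment 3 was 0.05. The Lars2 mean of 10793.7 TPM lay far above the list's median of 11.96 TPM, and the origin of its reads was not tested. Among 9 genes of mitochondrial transcription and replication, Tfam, the main packaging and transcription factor of mitochondrial DNA, had 14.92, 29.7 and 30.54 TPM in db/db libraries and 13.22, 15.12 and 18.38 TPM in WT libraries. It was higher in each experiment, with overlap, and its log2 fold change of 0.60 had an adjusted p of 0.919 in limma with Benjamini-Hochberg adjustment. The 13 messages of mitochondrial DNA were not found in the deposited values under the symbols searched, and so were not analysed here.

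The 11 regulators of nuclear genes for mitochondria had a relative median of 0.21 over the whole comparison. Within experiments 1 to 3 it was -0.04, -0.14 and 0.17, so its sign was not the same throughout. At an unadjusted p under 0.05 in limma 1 of the 11 was higher (9.09%, against 4.1% of all tested genes) and 0 were lower (against 1.25%). Gabpb1, the partner of the ETS factor GABPA, had 61.99, 90.48 and 87.65 TPM in db/db libraries and 59.4, 36.3 and 56.67 TPM in WT libraries. Its db/db values were all above the WT values, and the log2 fold change of 0.66 (SE 0.30) had an adjusted p of 0.919 in limma with Benjamini-Hochberg adjustment. Gabpa had 19.58, 28.85 and 17.08 TPM in db/db libraries and 14.05, 13.29 and 17.58 TPM in WT libraries, with overlap. Nrf1, whose motif was counted above, had a log2 fold change of -0.26. Less the median of all genes, its differences in experiments 1 to 3 were -0.27, -0.67 and -0.38. Of the 11 regulators, 8 had a log2 fold change above 0 and 3 below. Myc, which is known to drive ribosome production, had 202.5, 169.06 and 202.29 TPM in db/db libraries and 158.86, 136.15 and 168.29 TPM in WT libraries, without overlap and with a log2 fold change of 0.31.

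Set beside the promoter counts above, ribosomal genes with and without an ETS match had median log2 fold changes of -0.00 over 25 genes and -0.07 over 43 genes. For NRF1 these were 0.04 over 8 genes and -0.07 over 60. For YY1 they were -0.04 over 8 genes and -0.07 over 60. For SP1 they were -0.05 over 34 genes and -0.07 over 34. These are descriptions, with no test.

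The cytosolic ribosomal protein genes and the respiratory chain genes had relative medians of -0.42 and -0.25. Across experiments 1 to 3 these were 0.05, -1.02 and -0.29 for the cytosolic genes and -0.02, -0.70 and -0.19 for the respiratory chain genes. In all 3 sets the relative median was near 0 in experiment 1 and lowest in experiment 2. Before subtraction of the all-gene median, the experiment 2 medians were -0.57 for cytosolic and -0.25 for respiratory chain genes. That of the 77 genes was -0.04 there. At an unadjusted p under 0.05 in limma, 12 of the 76 cytosolic genes (15.8%) and 9 of the 76 respiratory chain genes (11.8%) were lower, against 1.25% of all tested genes. None of either list was higher at that p, against 4.1%, and none passed. Whether the mitochondrial set differs from these was not tested.

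Reads shared with other loci limit some single values. By BLAST of coding sequences, 20 of the 77 genes have a transcript of another gene at 95% identity or more over at least 50% of the coding sequence, Mrps26, Mrpl27, Mrps16, Mrpl33, Mrpl23, Mrps21 and Mrps33 among them. For 2 of the 20 the other gene was found in the deposited table by its symbol or a RefSeq synonym. For Mrpl32 it is Gm6578, listed at 0 in all 6 libraries. For Mrpl43 it is Twnk, the mitochondrial DNA helicase, under its older symbol Peo1. An exon of a gene on the opposite strand overlaps 27 of the 77 genes, and one on the same strand overlaps 8. The copies and overlaps come from a later annotation than the one behind the table.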

How the data were processed

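RNA was measured in 6 libraries, 3 db/db and 3 WT, grouped by the genotype in the labels. The deposited values are TPM per gene symbol, made by the authors with RSEM and Bowtie2 on mm9, per the submitters' processing notes; versions and annotation are not given in the sources used here. TPM keeps no depth, so no counting intervals could be given. Libraries were, per the labels' protocols, linearly amplified and prepared with a stranded mRNA kit. The 11931 genes averaging 1 TPM or more were fitted in limma 3.58.1 (R 4.3.3) on log2(TPM + 1), with genotype alone in the model and trended moderation; tests were two-sided, and p-values were adjusted over all fitted genes by Benjamini-Hochberg. Fold changes on this scale understate the change of low genes. The procedure was also run on simulated data with independent noise for each gene. That simulation held no scaling difference between libraries and no experiment effect, so it does not bear on those.

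Coding lengths, overlaps and copies came from GENCODE M21 (GRCm38) with BLAST 2.17.0, and motifs were searched in Python 3.11.15. The experiment number pairs the libraries, per the labels; after group means were removed, libraries correlated at 0.04, 0.0116 and 0.162 within experiments and at -0.117 to 0.0807 between them. No library pair had more than 0.654% identical values.

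The genes named were the 4 of highest mean per subunit, up to 4 per subunit and direction of largest fold change relative to all genes with 1 sign in all 3 experiments, those passing or of unadjusted p under 0.05, the 2 steadiest and 2 most variable, and Mrps18a, Mrps18b and Mrps18c. From each pathway list came up to 2 genes of smallest p and the 1 of highest mean, not all of which are described. Other genes named, such as those lowest in level, were chosen after their values were seen. The members and lists were chosen with earlier results of these data known. As alternatives, the pseudocount was set to 0.1 or 0.5, the filter was dropped or raised to 5 TPM, libraries were scaled by median of ratios or quantile normalized, moderation was run without a trend or robustly, and the remaining ones were the experiment as a replicate block with and without scaling, and each library left out in turn.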

Additional observations from a re-analysis of the deposited data

How the results depend on the processing

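No mitochondrial ribosomal protein gene and no gene of the pathway lists passed in limma under any alternative run. With the experiment as a replicate block (the pairing the labels give), 0 of the 77 genes passed, against 0.0503% of all tested genes. At an unadjusted p under 0.05, 1 was higher (Mrps2), against 5.41%, and 3 were lower (Mrps26, Mrpl46 and Mrps16), against 1.62%. Mrpl27, among the 3 lower without the block, was not among them. The relative median with the block was -0.25. The number lower at that p was 3 as reported, 6 with median-of-ratios scaling, 7 with quantile normalization, 1 without a trend and 1 to 4 with a library left out, the 1 without WT replicate 2. The number higher was 0 as reported and at most 2, without WT replicate 3. The relative median stayed below 0, from -0.32 to -0.095 with a library left out, and the median of all genes ran from 0.077 to 0.31. Mrps26 ranged from -1.53 to -0.92, with adjusted p-values of 0.273 to 1 over the alternatives. Of the genes named for a sign held in all experiments, Mrps25 changed sign, ranging from -0.29 to 0.086 with a library left out (0.086 without db/db replicate 1, 0.041 without WT replicate 2). With a library left out, that group keeps 2 libraries. Unknown depth leaves counting error out of every value.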
